A study of Mus musculus with 2 samples.

Results

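Genes that mark the lining of blood vessels were compared between UVB-induced skin tumours of wild-type and P2ry6-/- mice. The set held 10 genes, taken as every non-control probe whose gene name on the array was Pecam1, Cdh5, Kdr, Flt1, Tek, Tie1, Esam, Vwf, Cldn5 or Emcn. They are 10 of 37320 gene names on the array. They had 17 probes, of which 14 gave a signal well above background on both arrays, so that all 10 genes were among the 19873 measured on both.

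The mice were male, 2 months old at the start, and either P2RY6+/+ or P2RY6-/-. P2ry6 encodes a receptor for the nucleotide UDP. Both genotypes received UVB, at 180 mJ/cm2 during the first 10 weeks, then in weekly steps of 10 mJ/cm2 until 300 mJ/cm2 was reached in week 22, a dose held to week 40. The comparison asks how the tumours differ in gene expression when P2ry6 is deleted. There was 1 tumour RNA sample per genotype on 1 single-colour array, and neither the number of tumours or mice in a sample nor the deleted part of the gene is given in the sources used here. Since each genotype has a single array, biological replicates are lacking, and differences are described by size with no test. Pairs of signals below are given for the wild-type-labelled array first and the knockout-labelled array second, and differences are knockout-labelled minus wild-type-labelled on the log2 scale.

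Endothelial cells line every blood vessel and lymphatic vessel. They are held together by the cadherin of Cdh5 and by claudins, and they sense growth factors of the VEGF and angiopoietin families through receptor tyrosine kinases that are largely restricted to them. A solid tumour is fed by vessels recruited from the surrounding dermis, and VEGF signalling is the best known driver of that growth. In bulk tumour RNA, fewer endothelial cells and less RNA per cell cannot be told apart.

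On the array labelled as the knockout P2ry6 itself was 2.44-fold higher, with a log2 difference of 1.29 ± 0.01 (SD, n = 2 probes). Whether its probes lie inside the deleted part, and whether the labels of the 2 arrays are exchanged, is not known here. The arrays are therefore named by their labels, and every direction rests on those labels. The scanner software marked 57.8% and 57.9% of non-control spots as well above background. Both arrays lay on 1 slide and were read in 1 scan. The error that can be measured is technical. The difference between arrays had an SD of 0.12 (log2) among replicate spots of 293 probes, and probes of the same gene varied with an SD of 0.38 over 6731 genes. For bright spots the scanner software's own error model gives about 10.0% of the signal, which comes to an error of 0.20 for a log2 difference.

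The probes of Esam, Flt1, Kdr and Vwf are shown here by their first 30 of 60 bases, read from the array files. Flt1, Kdr and Vwf have several probes each, which differed in signal. The array files give positions on mm9. Flt1 and Kdr lie on the minus strand, so their highest coordinate is nearest the start of the gene. Esam and Vwf lie on the plus strand.
Esam, chr9:37345795-37345854: gttgtagcagggggataggaaagacatttt
Flt1, chr5:148465976-148466035: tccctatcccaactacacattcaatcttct
Flt1, chr5:148450688-148450747: aggaggaatgattgtaccacacaaagtcat
Flt1, chr5:148448888-148448947: tcctcagaacaaaacctgaactgaactgag
Flt1, chr5:148373791-148373850: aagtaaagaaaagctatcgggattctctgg
Kdr, chr5:76357639-76357698: gtacaataacatgcaaaggtatatcaaagg
Kdr, chr5:76353385-76353444: ttgtggaattggagggaaataaatcctcta
Kdr, chr5:76329309-76329368: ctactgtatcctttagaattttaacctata
Vwf, chr6:125542106-125542165: tagttaaacagaacaacagtgaagggcgga
Vwf, chr6:125586583-125586642: gcacctgtgctgtttcccttaaacatgatt
Vwf, chr6:125636551-125636610: caagtgaggcctgtgcagctacagcggatt
The Flt1 probes stand for 3 transcripts, since the probes at 148450688 and 148448888 are both assigned by the array file to the Ensembl transcript ENSMUST00000110529. The Kdr probe at 76353385 is assigned to a soluble form of the receptor. No exon or untranslated region annotation of mm9 was used here.

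Of the 10 genes, 1 was at least 2-fold higher on the knockout-labelled array, 0 were at least 2-fold lower and 9 were neither. Over all 19873 measured genes the share past 2-fold was 4.82% in the higher and 5.04% in the lower direction. The gene past 2-fold was Esam. The median difference of the 10 was 0.34 (log2), beside −0.06 over all measured genes. On the main scale, of the 10, 5 differed by less than 0.5 log2 units in size, namely Pecam1, Cdh5, Tie1, Cldn5 and Tek, and 4 lay between 0.5 and 1, namely Kdr, Flt1, Vwf and Emcn. On this scale 7 were above 0, against 45.1% of all measured genes, and 3 below. Relative to spike-in controls 0 of the 10 were past 2-fold, where 1.61% of all genes were at least 2-fold higher and 15.7% lower. The split about 0 became 5 and 5 on that scale, 6 and 4 relative to the array median, and 9 and 1 relative to the 75th percentile of probes well above background.

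**Figure D1:**
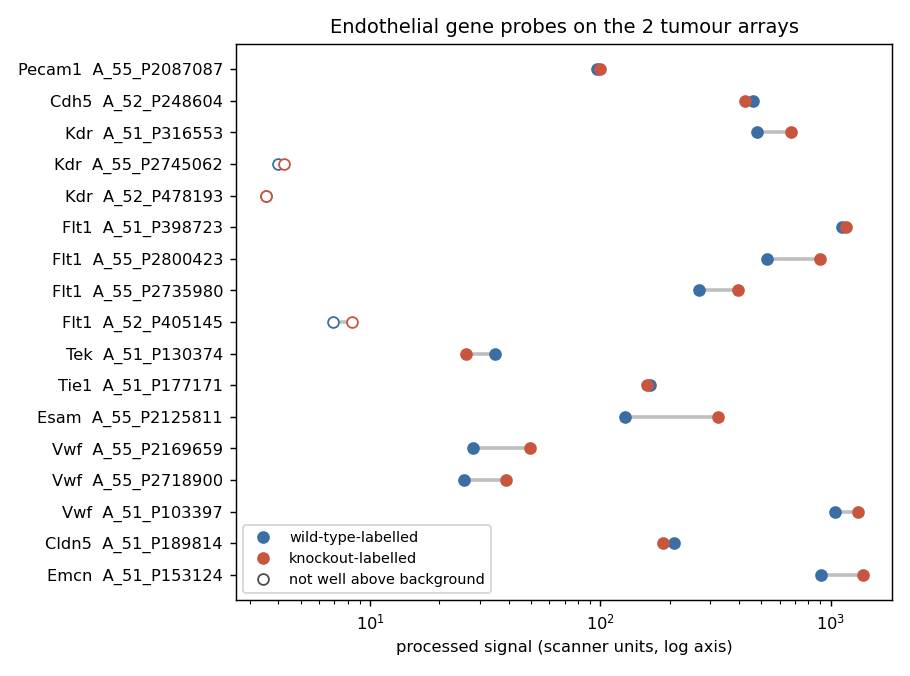
Processed signal (scanner units, log axis) of all 17 probes of the 10 endothelial genes, 1 row per probe with the array's probe name and rising coordinate within a gene, on the wild-type-labelled (blue) and knockout-labelled (red) array. Filled points were well above background and open points were not; the widest gap among filled points is that of Esam, from 128 to 323 units.

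Among the junction and adhesion genes, 3 stayed within the technical error and 1 did not. Esam encodes an immunoglobulin-like adhesion molecule of endothelial tight junctions that platelets also carry. Its probe read 128 ± 13.5 and 323 ± 32.6 signal units (scanner error). Relative to the 75th percentile of each array its level was −1.44 and −0.02 (log2), a difference of 1.42 ± 0.21 (scanner error), or 2.68-fold higher. Of all measured genes, 1.79% were at least as far in this direction. Esam rests on 1 probe, so no second probe checks it. Its difference was 1.01 under normexp background correction and 0.96, short of 2-fold, relative to spike-in controls. In the authors' deposited table of log2 values the same probe read 6.89 and 8.31.

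Cdh5 encodes VE-cadherin, the adherens junction protein of endothelial cells. Its probe (chr8:106668159-106668218) read 461 and 424 units, a difference of −0.03 ± 0.20 (scanner error) after scaling. Cldn5, the main claudin of endothelial tight junctions, read 209 and 188 units (chr16:18778046-18778105), a difference of −0.07 ± 0.21. Pecam1, the adhesion molecule CD31 of endothelial cells, leukocytes and platelets, read 96.7 and 99.2 units (chr11:106540864-106540923), a difference of 0.12 ± 0.22. Each of these differences was smaller than its scanner error, and each rests on 1 probe. The differences of Esam and Cdh5 were 1.46 log2 units apart. Beside that stand a between-probe SD of 0.38 within a gene and an SD of 0.65 of the differences over all measured genes.

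On gene means the differences of the VEGF receptors Kdr and Flt1 were above those of the angiopoietin-linked receptors Tek and Tie1. At its brightest probe alone Flt1 differed by 0.15 ± 0.20 (scanner error), beside 0.04 ± 0.21 for Tie1, and Tek was dim. Kdr, the receptor VEGFR2 that carries most of the growth signal of VEGF-A, read 479.6 and 669.7 units at its 3′-most probe. That is a difference of 0.57 ± 0.20 (scanner error), or 1.48-fold. The other Kdr probes were not well above background on either array. The probe for the soluble form read 3.99 and 4.21 units, and the probe at 76357639 read 3.54 and 3.52. No level of a soluble Kdr transcript was therefore measured.

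Flt1, the receptor VEGFR1 that binds VEGF-A tightly and is also made as a secreted form, was measured by 3 of its 4 probes. The probe at 148373791, assigned to the RefSeq transcript NM_010228, read 1118 and 1169 units, a difference of 0.15. The probes of ENSMUST00000110529 read 526 and 899 units, a difference of 0.86, and 268 and 397 units, a difference of 0.65. The probe at 148465976 was not well above background on either array, at 6.91 and 8.31 units. The gene mean was 0.55 ± 0.36 (SD, n = 3 probes), and taking the brightest probe alone gave 0.15. The probes of ENSMUST00000110529 were thus 1.81-fold and 1.57-fold higher and the 3′-most probe 1.11-fold higher. A gap this wide was common: over the 1619 genes with 3 measured probes the median range between probes was 0.52, and 31.8% had a range at least as wide as the 0.71 of Flt1. Whether ENSMUST00000110529 codes for the secreted receptor is not given in the array file.

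Tie1, an orphan receptor that modulates angiopoietin signalling, read 165 and 159 units (chr4:118144132-118144191), a difference of 0.04 ± 0.21 (scanner error). Tek, the angiopoietin receptor TIE2, read 34.96 and 26.03 units (chr4:94540861-94540919), a difference of −0.34 ± 0.32. Tek was the gene farthest below 0 among the 10. It was also dim: on the knockout-labelled array its signal was near the lowest signal well above background, and it was lost under a stricter filter on dim probes.

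Vwf encodes von Willebrand factor, the clotting protein that endothelial cells store and release. All 3 of its probes were higher on the knockout-labelled array. The 3′-most probe read 1042 and 1307 units, a difference of 0.41. The other probes, assigned to other Ensembl transcripts, were far dimmer, at 27.9 and 49.4 units (0.91) and at 25.5 and 38.8 units (0.69). The gene mean was 0.67 ± 0.25 (SD, n = 3 probes), or 1.59-fold. The dim probes gave the wider differences and have the wider scanner errors, 0.30 and 0.36 against 0.20.

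Emcn encodes endomucin, a sialylated surface protein of capillaries and veins that hinders leukocyte attachment. It read 907 and 1374 units (chr3:137093811-137093870), a difference of 0.68 ± 0.20 (scanner error), or 1.61-fold. Kdr, Emcn, Vwf and Flt1 lay above 0 under all 10 alternatives tried, with Emcn between 0.22 and 0.83 and Kdr between 0.11 and 0.71. They did not all keep above 0.5, and on the spike-in scale none of these 4 did. Under normexp correction Vwf was 0.35 and Kdr 0.44, and on the median scale Kdr was 0.47 and Flt1 0.45. With no filter on dim probes Kdr was 0.27, and with the stricter filter Vwf was 0.41. With the brightest probe per gene Flt1 was 0.15 and Vwf 0.41. Pecam1, Cdh5, Tie1 and Cldn5 changed sign between scales.

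**Figure D2:**
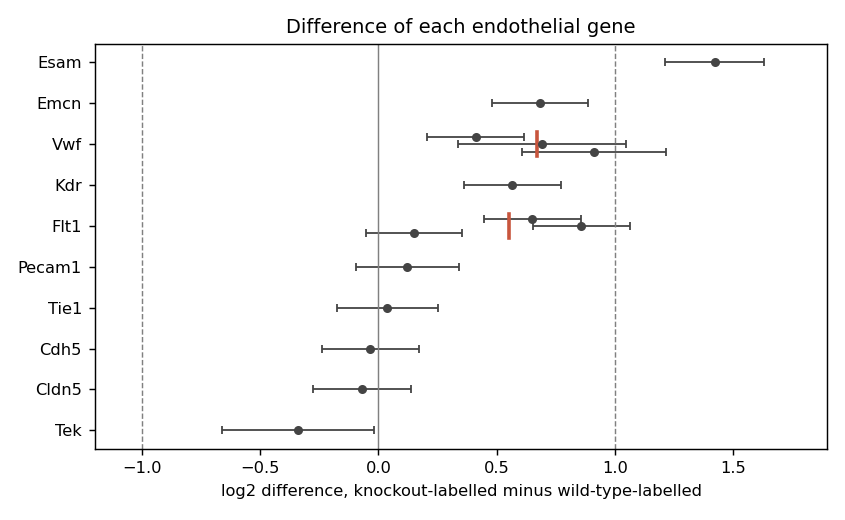
Log2 difference of each endothelial gene, knockout-labelled minus wild-type-labelled. Points are measured probes with the scanner software's error, red ticks are the means of Flt1 and Vwf over 3 probes, and dashed lines mark 2-fold; Esam alone lies beyond a dashed line, at 1.42.

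Other genes known for expression across endothelial cells were measured in the same way. Of 30 such genes 29 were measured, with 2 at least 2-fold higher, 0 lower and 27 neither, and a median of 0.34, which was −0.12 relative to spike-in controls. On the main scale 23 lay above 0, beside 45.1% of all measured genes. Ushbp1 had the widest difference, 1.53 ± 1.29 (SD, n = 2 probes), but its probes disagreed by more than the mean. Erg, an ETS transcription factor that maintains endothelial identity, was dim and read 30.8 and 58.3 units, or 2.01-fold higher. S1pr1, the sphingosine-1-phosphate receptor that tightens vessel barriers, read 171 and 301 units (0.90). The adhesion receptor Adgrl4, also dim, read 30.9 and 51.9 units (0.83). The 6 below 0 were Sox7 (−0.62), Mcam (−0.35), Nos3 (−0.27), Tm4sf1 (−0.16), Rasip1 (−0.09) and Calcrl (−0.04). The rule for named genes did not pick these 6, and they were singled out after their values were seen. The 1 gene not well above background on either array was Clec14a. Both tumour samples thus held RNA of nearly all markers on this longer endothelial list.

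Most measured VEGF and angiopoietin ligands and coreceptors lay within 2-fold, and Vegfd did not. Of 11 VEGF and angiopoietin ligands and coreceptors 8 were measured, with 0 at least 2-fold higher, 1 lower and 7 neither. Among all measured genes the shares were 4.82% higher and 5.04% lower. The list had a median of 0.15, which was −0.31 relative to spike-in controls. Vegfd, a ligand of VEGFR3 and a growth factor of lymphatic vessels, read 638 and 147 units at its brighter probe. Its difference was −2.16 ± 0.17 (SD, n = 2 probes), or 4.47-fold lower. Vegfc, its closest relative, was 1.68-fold higher (0.75 ± 0.30, SD, n = 2 probes). The coreceptor Nrp1, which presents VEGF-A to Kdr, was 1.71-fold higher (0.77 ± 0.23, SD, n = 3 probes), and Pgf, a ligand of Flt1, differed by 0.24. Vegfa and Angpt2 fall outside the rule for named genes and are given for their role. Nrp2 differed by −0.24 ± 0.22 (SD, n = 2 probes). Vegfa itself, the main ligand of Kdr and Flt1, differed by −0.06 ± 0.39 (SD, n = 4 probes). Angpt2, the angiopoietin of remodelling vessels, differed by 0.14 with 536 and 556 units, while Angpt1, Angpt4 and the receptor Flt4 were not well above background on either array.

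On the main scale 8 of the sprouting genes lay above 0 and 1 below. Of the genes of arterial or venous identity 7 lay above and 4 below on that scale. Over all measured genes 45.1% lay above 0. All 9 sprouting and tip cell genes were measured, with 1 at least 2-fold higher, 0 lower and 8 neither, and a median of 0.50. Kcne3, a potassium channel subunit, read 113 and 252 units (1.24), and Apln, the apelin peptide of sprouting vessels, read 777 and 1431 units (0.97). Pdgfb, by which sprouts recruit pericytes, differed by 0.55 ± 0.49 (SD, n = 2 probes) and the apelin receptor gene Aplnr by 0.55. Of 12 arterial and venous genes 11 were measured, with 1 at least 2-fold higher, 0 lower and 10 neither, and a median of 0.49. Hey1, a Notch target of arterial cells, read 105 and 226 units (1.19), the TGF-beta family receptor gene Acvrl1 read 255 and 459 (0.93) and Notch4 790 and 1272 (0.77), beside Nrp1. The 4 below 0 were Nr2f2 (−0.66), a transcription factor gene of veins, Nrp2 (−0.24), the kinase gene Bmx (−0.22) and Ephb4, a venous ephrin receptor gene, at −0.0011 ± 0.55 (SD, n = 3 probes). Nr2f2, Bmx and Ephb4 were singled out after their values were seen. Under the spike-in scale the medians of these lists were 0.04 and 0.03.

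Adhesion molecules that endothelial cells show to leukocytes when activated went opposite ways. Of 6 genes 4 were measured, with 1 at least 2-fold higher, 1 lower and 2 neither. Over all measured genes 4.82% were higher and 5.04% lower by that measure. The median of −0.41 turned to 0.14 under the stricter filter on dim probes and to −0.88 relative to spike-in controls. Vcam1 read 201 and 415 units (1.13, or 2.19-fold higher). Selp, the P-selectin of endothelial cells and platelets, read 194 and 80.3 units at its brighter probe (−1.38 ± 0.27, SD, n = 2 probes, or 2.61-fold lower). Ackr1, the chemokine-binding receptor of venules, differed by −0.70 and Icam1 by −0.13 ± 0.39 (SD, n = 2 probes). Sele passed background in the wild-type-labelled sample alone and was at least 1.43-fold lower in the other. Madcam1 passed it in the knockout-labelled sample alone and was at least 1.31-fold higher there.

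**Figure D3:**
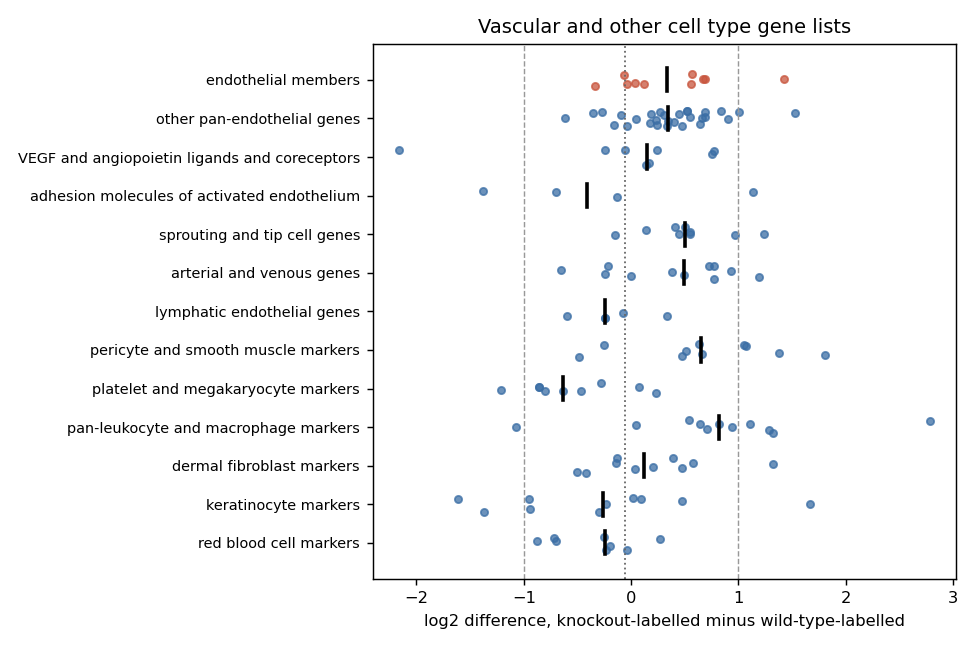
Log2 difference of every measured gene of each list, knockout-labelled minus wild-type-labelled, with black ticks at list medians, dashed lines at 2-fold and a dotted line at the median of all measured genes. On the main scale shown, the 10 endothelial genes (red) have a median of 0.34. Pericyte and smooth muscle markers (0.65) and leukocyte and macrophage markers (0.82) lie higher and platelet markers (−0.64) lower. Relative to spike-in controls these medians were −0.12, 0.19, 0.36 and −1.10.

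Markers of other cells that share some of these genes also differed between the arrays. Platelets carry Vwf, Pecam1, Esam and Selp. Of 11 platelet and megakaryocyte markers 9 were measured, with 0 at least 2-fold higher, 1 lower and 8 neither, and a median of −0.64. These counts are on the main scale, where 4.82% of all measured genes were higher and 5.04% lower. The spike-in scale lowered every difference by 0.46. It put more of these markers past 2-fold lower, among them Gp1bb, Clec1b and Gp9, where 15.7% of all genes were. The signals of the brightest probe of each measured marker, before scaling between arrays, summed to 2229.9 and 1566 units. Such a sum follows the brightest genes. For the other pan-endothelial genes it was 41746.5 and 41202.6 units, beside a median of 0.34. Ppbp, a chemokine of platelet granules, read 314 and 128 units (−1.21), Gp1bb, a subunit of the platelet receptor for von Willebrand factor, 98.4 and 51.1 (−0.86), Clec1b −0.85 and Gp9 −0.80. Itga2b and Gp1ba were not well above background on either array. Of the genes that platelets share, Selp (−1.38) lay below 0, Pecam1 (0.12) near it, and Vwf (0.67) and Esam (1.42) above. The part of platelets in these values was not tested.

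Leukocytes carry Pecam1, and monocytes and macrophages can carry Flt1. All 11 leukocyte and macrophage markers were measured, with 4 at least 2-fold higher, 1 lower and 6 neither, and a median of 0.82. On this main scale 4.82% of all measured genes were higher and 5.04% lower. The spike-in scale, 0.46 lower throughout, left Cd14, C1qb and Lyz2 short of 2-fold and the median at 0.36. Summed over brightest probes before scaling, as above, their signal was 15924 and 26586 units. Cx3cr1 differed by 2.78, the lipopolysaccharide coreceptor gene Cd14 by 1.33 ± 0.02 (SD, n = 2 probes), and the complement gene C1qb by 1.28, followed by Lyz2, which was 2.15-fold higher. The 1 lower was Mrc1 (−1.07), singled out after its value was seen. Ptprc, the pan-leukocyte marker, falls outside the rule for named genes and is given for its role. It differed by 0.64 ± 0.65 (SD, n = 4 probes), and its brightest probe read 1967 and 1496 units. The part of leukocytes and macrophages in the values of Pecam1 and Flt1 was not tested.

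Pericytes and smooth muscle cells wrap the endothelium. Of 11 of their markers 10 were measured, with 4 at least 2-fold higher, 0 lower and 6 neither, and a median of 0.65. On this main scale the shares over all measured genes were 4.82% higher and 5.04% lower. The spike-in scale lowered every difference by 0.46, which left Acta2, Cspg4 and Cnn1 short of 2-fold and the median at 0.19. Tagln read 2915 and 9606 units (1.81), Acta2 differed by 1.38 ± 0.90 (SD, n = 3 probes), Cspg4, the pericyte proteoglycan NG2, by 1.07 and Cnn1 by 1.05. On the main scale 8 of the 10 lay above 0, beside 45.1% of all measured genes, and 2 lay below. The 2 below were Rgs5 (−0.26) and Notch3 (−0.49). The rule for named genes did not pick these 2, and they were singled out after their values were seen. Activated fibroblasts also express Tagln and Acta2.

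Promoter windows from RefSeq (GRCm38.p6) were at hand for 6 of the 10 genes, Emcn, Tek, Tie1, Kdr, Flt1 and Cldn5. Each window ran from 250 bases before to 50 bases after the start of the gene. ETS factors, among them Erg and Fli1, are known regulators of endothelial genes. The ETS motif AGGAAG, searched on both strands, was in the windows of Emcn, Flt1 and Tie1, or 3 of 6, and in 35.4% of all 32851 windows. The stricter form CCGGAAG was in 0 of 6 and in 8.86% of all. The GATA motif AGATAA was in 1 of 6 (Tek, 11.2% of all), the SOX motif AACAAT in 2 (Emcn and Tek, beside 3521 of all windows) and the FOX motif TGTTTAC in 0 (3.65%). GGGCGG, the SP1 motif, was in 3 (Cldn5, Flt1 and Kdr, 35.7%) and TATAAA in 1 (Flt1, 13.6%). The 250 bases before the start are shown for the genes with AGGAAG, in which capitals mark that motif on either strand, for Emcn and Flt1, which were above 0.5, beside Tie1, which lay near 0.
Emcn, chr3:137340828-137341077, plus strand: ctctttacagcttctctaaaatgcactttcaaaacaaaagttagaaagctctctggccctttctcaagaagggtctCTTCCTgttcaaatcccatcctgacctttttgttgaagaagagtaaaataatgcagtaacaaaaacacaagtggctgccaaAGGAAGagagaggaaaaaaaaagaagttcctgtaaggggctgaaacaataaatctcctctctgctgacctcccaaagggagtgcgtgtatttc
Flt1, chr5:147726012-147726261, minus strand: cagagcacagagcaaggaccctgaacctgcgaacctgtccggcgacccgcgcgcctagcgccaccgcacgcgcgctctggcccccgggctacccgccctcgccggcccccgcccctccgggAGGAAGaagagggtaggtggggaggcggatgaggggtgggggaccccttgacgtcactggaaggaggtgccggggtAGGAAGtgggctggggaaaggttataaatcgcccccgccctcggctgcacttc
Tie1, chr4:118489850-118490099, minus strand: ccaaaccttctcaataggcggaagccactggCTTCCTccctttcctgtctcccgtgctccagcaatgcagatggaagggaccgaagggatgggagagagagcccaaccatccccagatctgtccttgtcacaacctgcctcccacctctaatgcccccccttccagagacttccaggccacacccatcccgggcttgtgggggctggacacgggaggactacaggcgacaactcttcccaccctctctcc
The motif stood 174 and 93 bases before the start of Emcn, 129 and 53 bases before that of Flt1 and 219 bases before that of Tie1, whose window held it again in the 50 bases after the start. A match describes these letters alone, and with 6 windows the shares of members and of all genes were not compared.

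**Figure D4:**
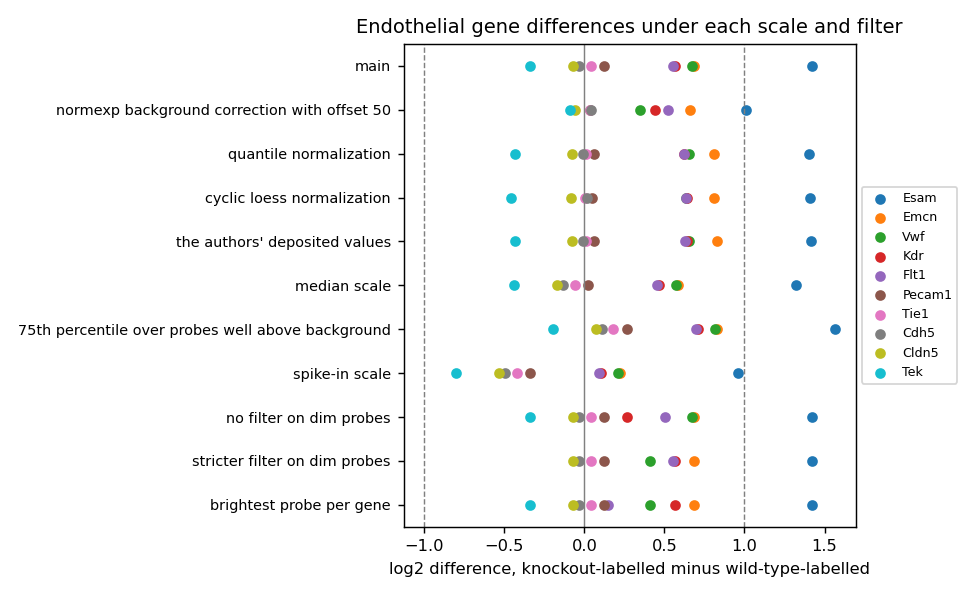
Log2 difference of each of the 10 endothelial genes (colours), knockout-labelled minus wild-type-labelled, under the main processing and 10 alternatives. Esam stays apart from the other genes in every row, from 0.96 on the spike-in scale to 1.57, and the whole set shifts left on the spike-in scale. Tek has no point under the stricter filter on dim probes.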

How the data were processed

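Total RNA was labelled with Cy3 from 0.2 µg per sample, per the labels' protocols. Per the file headers and the submitters' processing notes the authors used Agilent Feature Extraction 10.7.1.1 to turn each spot into an intensity with background subtracted and spatial trend removed. The authors also deposited log2 values of both arrays with the same median of 4.96 in each column, made by a method the sources used here do not name.

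From the processed signal, 102 and 105 outlier spots were left out, the log2 signal minus the array's 75th percentile over non-control probes was taken, and spots of a probe were averaged. A gene is the mean of its probes well above background on both arrays. A gene above background on 1 array got a bound against the lowest such signal. Of 56594 probes, 32983 matched a RefSeq accession (GRCm38.p6 table, names only). limma 3.58.1, Python 3.11.15 and pandas 2.3.3 were used, and the gene summary was tested on simulated data. No test between genotypes was possible. The named genes are the 10 members, P2ry6 and up to 4 genes of each list by size. A gene that this rule takes is not reported here. Members and lists were chosen with earlier results of these data known. The number of arrays limits the precision.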

Additional observations from a re-analysis of the deposited data

How the results depend on the processing

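The 10 alternatives were normexp background correction (offset 50), quantile and cyclic loess normalization, the authors' deposited values, 3 other scales, 2 other filters on dim probes and the brightest probe per gene. The spike-in scale, from 8 control probes, lowered every difference by 0.46 log2 units. On it 0 of the 10 endothelial genes were at least 2-fold higher, their median was −0.12, and the median of all measured genes was −0.52. The count of 1 higher and 0 lower held under the other 9, with medians from 0.14 to 0.48. For the other lists, counts past 2-fold are given on the main scale, and the spike-in shift moves several of them. The shares of all genes at least 2-fold higher and lower were 1.61% and 15.7% on the spike-in scale, 3.82% and 6.18% on the median scale, 6.73% and 3.57% relative to probes well above background, and 1.85% and 2.91% under normexp correction. Without replicates, biological spread is unknown. No paired analysis was possible because each genotype has 1 array.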

Other observations

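Of 8 lymphatic endothelial genes 5 were measured, 4 of them below 0, as were 10912 of all 19873 measured genes. On the main scale none of the 5 was at least 2-fold apart, where 4.82% of all measured genes were higher and 5.04% lower. Mmrn1 was past 2-fold lower on the spike-in scale. The median, which is the value of Nrp2, was −0.24, beside −0.06 over all measured genes. That median came to −0.025 with the authors' deposited values, −0.026 under quantile and −0.06 under cyclic loess normalization, and to −0.71 on the spike-in scale. Lyve1, the hyaluronan receptor of lymphatic vessels, differed by 0.34, and Mmrn1, Pdpn and Nrp2 by −0.59, −0.25 and −0.24 ± 0.22 (SD, n = 2 probes). The brightest probe of Nrp2 read 31563 and 22510 units and Pdpn 4146 and 3297, beside 48.7 and 57.9 for Lyve1. Which cells gave these signals was not tested. The defining transcription factor Prox1 and the receptor Flt4 were not well above background on either array, and Reln was above it on the wild-type-labelled array alone (at least 1.62-fold lower). Vegfd, a ligand of Flt4, was the gene with the widest difference among the vascular growth factors.

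Red blood cell markers, a measure of blood left in the tissue, had a median of −0.24, which ranged from −0.71 on the spike-in scale to −0.08 under cyclic loess normalization. All 8 were measured and 0 were at least 2-fold apart, among them Alas2 (−0.72), Hbb-b1 (−0.70) and Ahsp (0.27). The globin genes have near-identical copies, so their probes may read more than 1 of them. The counts in this paragraph are on the main scale, where 4.82% of all measured genes were at least 2-fold higher and 5.04% lower. Dermal fibroblast markers had a median of 0.12, which turned to −0.11 with the brightest probe per gene and to −0.34 on the spike-in scale, with 1 of 10 at least 2-fold higher and 0 lower, led by Dpt (1.32), Pdgfra (0.58), Dcn (−0.50) and Pi16 (0.47). Keratinocyte markers had a median of −0.27, which ranged from −0.73 on the spike-in scale to −0.013 under cyclic loess normalization, with 1 of 10 at least 2-fold higher (Krt5, 1.66) and 2 lower (Krt1, −1.62, and Krt10, −1.37), followed by Lor (−0.95).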
